A study of Mus musculus with 18 samples.

Results

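Immediate early transcription factors are the DNA-binding proteins whose genes are among the first to be transcribed when a cell is stimulated. Of these, 10 genes were followed across all arrays of the series: the FOS family members *Fos*, *Fosb* and *Fosl1*, the JUN family members *Jun*, *Junb* and *Jund*, the zinc finger factor genes *Egr1* and *Klf6*, the orphan nuclear receptor gene *Nr4a1*, and the stress-responsive factor gene *Atf3*. They were taken as a fixed list of symbols. The array carries 17 probe sets that name one of them and no other gene, among 45037 probe sets tested, and the 10 genes are among 18193 with such a probe set. Total RNA came from mutant c35 cells and from the wild-type Hepa-1c1c7 line of mouse hepatoma cells. The c35 line is a single mutant derivative of Hepa-1c1c7 whose aryl hydrocarbon receptor (AHR) cannot bind DNA, so the AHR mutation and any other difference between the lines cannot be told apart. Each line received benzo[a]pyrene (BaP, 5 µM), the dioxin TCDD (tetrachlorodibenzo-p-dioxin, 5 nM) or the dimethyl sulfoxide (DMSO) vehicle for 8 hr, with 3 biological replicates in each of the 6 groups. The labels give the TCDD dose for the c35 arrays only, and the study's methods give the same dose for both lines. Both lines were kept in α-minimal essential medium with 5% serum. Cells that received DMSO are called naive. The study mapped AHR binding targets in naive and ligand-treated cells by chromatin immunoprecipitation and promoter arrays, and combined them with sequence motifs and expression. The comparisons here use its expression arrays: BaP with TCDD in wild-type cells, each ligand with DMSO, and c35 with wild-type cells.

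The genes of this class need no new protein to be switched on. Growth factors, serum, cell stress and DNA damage act through mitogen-activated protein kinases on factors that already sit at their promoters, such as serum response factor and the cAMP response element binding protein CREB, and transcription usually fades again as phosphatases and RNA-binding proteins feed back. Proteins of the FOS and JUN families pair to form activator protein 1 (AP-1), which binds its own class of DNA sites. FOS proteins need a JUN partner, whereas JUN proteins can also pair with each other. EGR1 and KLF6 bind GC-rich promoters, NR4A1 acts without a known hormone, and ATF3 is a member of the CREB family that is made under stress. The AHR is itself a ligand-activated transcription factor. TCDD and BaP both bind it, and BaP, unlike TCDD, is readily metabolized by the cytochrome P450 enzymes that the receptor induces.

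Promoter sequences from RefSeq (assembly GRCm38.p6) were used for 8 of the 10 genes. The 250 bases upstream of the gene start are given for *Fos*, *Jun* and *Nr4a1*, which rose together with BaP in wild-type cells, and for *Junb*, which differed most between the naive lines. Capitals mark the letters TGACG, the CREB core, and GCGTG, the AHR core, on either strand, so that CGTCA and CACGC are marked too. Each sequence reads 5′ to 3′ on the strand of its gene. The windows lie at chr12:85473640-85473889 on the plus strand for *Fos*, at chr4:95052223-95052472 on the minus strand for *Jun*, at chr15:101266596-101266845 on the plus strand for *Nr4a1*, and at chr8:84978749-84978998 on the minus strand for *Junb*.
Fos: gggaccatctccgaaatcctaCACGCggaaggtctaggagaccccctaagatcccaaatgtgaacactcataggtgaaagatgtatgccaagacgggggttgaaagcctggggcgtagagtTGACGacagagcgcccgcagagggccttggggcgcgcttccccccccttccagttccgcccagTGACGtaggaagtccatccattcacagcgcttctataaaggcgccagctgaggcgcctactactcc
Jun: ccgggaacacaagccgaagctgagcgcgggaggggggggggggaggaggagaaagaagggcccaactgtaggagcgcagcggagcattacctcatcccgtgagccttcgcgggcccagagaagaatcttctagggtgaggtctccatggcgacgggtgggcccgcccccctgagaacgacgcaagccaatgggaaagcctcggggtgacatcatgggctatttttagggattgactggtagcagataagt
Nr4a1: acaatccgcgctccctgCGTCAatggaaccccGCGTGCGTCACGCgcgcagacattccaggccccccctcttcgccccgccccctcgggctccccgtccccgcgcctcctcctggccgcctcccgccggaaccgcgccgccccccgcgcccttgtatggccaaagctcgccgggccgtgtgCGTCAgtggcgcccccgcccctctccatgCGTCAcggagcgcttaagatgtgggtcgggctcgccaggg
Junb: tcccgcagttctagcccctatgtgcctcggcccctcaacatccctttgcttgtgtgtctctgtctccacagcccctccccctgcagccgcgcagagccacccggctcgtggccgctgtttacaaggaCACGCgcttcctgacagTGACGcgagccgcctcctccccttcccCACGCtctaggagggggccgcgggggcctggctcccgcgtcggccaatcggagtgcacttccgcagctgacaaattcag
The *Fos* window holds 2 CREB cores, 1 AHR core and the letters TATAAA once. The *Nr4a1* window holds 4 CREB cores and 2 AHR cores, one of which overlaps a CREB core. The *Junb* window holds 1 CREB core and 2 AHR cores, and the *Jun* window holds neither. Among 32851 RefSeq promoter windows of the same length, 17.8% hold TGACG, 28.2% hold GCGTG and 7.59% hold TATAAA. At least 2 CREB cores stand in 3.90% of the windows and at least 4 in 0.137%, and at least 2 AHR cores in 8.63%. Of the 8 windows used, 0 hold the AP-1 letters TGACTCA, present in 4.46% of all windows. The CArG box of serum response factor, present in 1.47% of all windows, is in 0 of the 8. Sites outside the 250 bases were not read, so this does not show that the genes lack a CArG box. The promoters of *Fosl1* and *Egr1* were not searched, which does not mean that RefSeq lacks them. These matches describe letters, not binding.

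Signals are log2 values from robust multiarray averaging (RMA), and where a gene has several probe sets the brightest one on average stands for it. To be called, a gene needed an FDR (adjusted p) under 0.05 together with more than a 1.5-fold change in a limma fit over all 18 arrays. Most of the genes were well expressed: the mean log2 signal over all arrays was 11.58 for *Jund*, 10.82 for *Fosl1*, 10.44 for *Klf6*, 9.0 for *Egr1*, 8.84 for *Nr4a1*, 8.83 for *Junb*, 8.20 for *Jun*, 7.93 for *Fos* and 7.36 for *Atf3*. Levels of different probe sets are not comparable as amounts of RNA. Only *Fosb*, at 4.03, lay below the median of 5.66 over all probe sets, with 23.3% of probe sets below it. Arrays correlated at r = 0.995 to 0.998 within c35 cells, at 0.991 to 0.997 within wild-type cells and at 0.969 to 0.980 between the lines. The 3′ minus 5′ log2 signal of the *Actb* control probe sets, a measure of RNA breakdown, was 0.30 to 0.53 on c35 arrays and 0.73 to 1.38 on wild-type arrays. All 7 hepatoma markers had a mean above the median signal in every group. So did 3 of 4 fibroblast, 2 of 4 leukocyte and 1 of 4 endothelial markers. Some lay close to the median: the hepatoma marker *Apoa1* had a mean of 5.71 with BaP in wild-type cells. The fibroblast marker *Col1a2* had a mean of 5.66 in naive wild-type cells. The log2 signal of *Cyp1a1*, the AHR-induced cytochrome P450 gene, was 13.37 to 13.47 with BaP, 12.92 to 13.07 with TCDD and 9.61 to 9.81 with DMSO in wild-type cells. In c35 cells 3 arrays stood apart from their own groups: *Cyp1a1* was 8.32 on BaP replicate 3, against 6.23 and 5.25 on the other BaP arrays, and 8.32 and 8.34 on DMSO replicates 1 and 2, against 4.87 on DMSO replicate 3. On the 3 c35 TCDD arrays it was 5.39 to 6.11. For comparisons of the 10 genes that use these 3 arrays, values without them are given beside the results that change most.

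**Figure D1:**
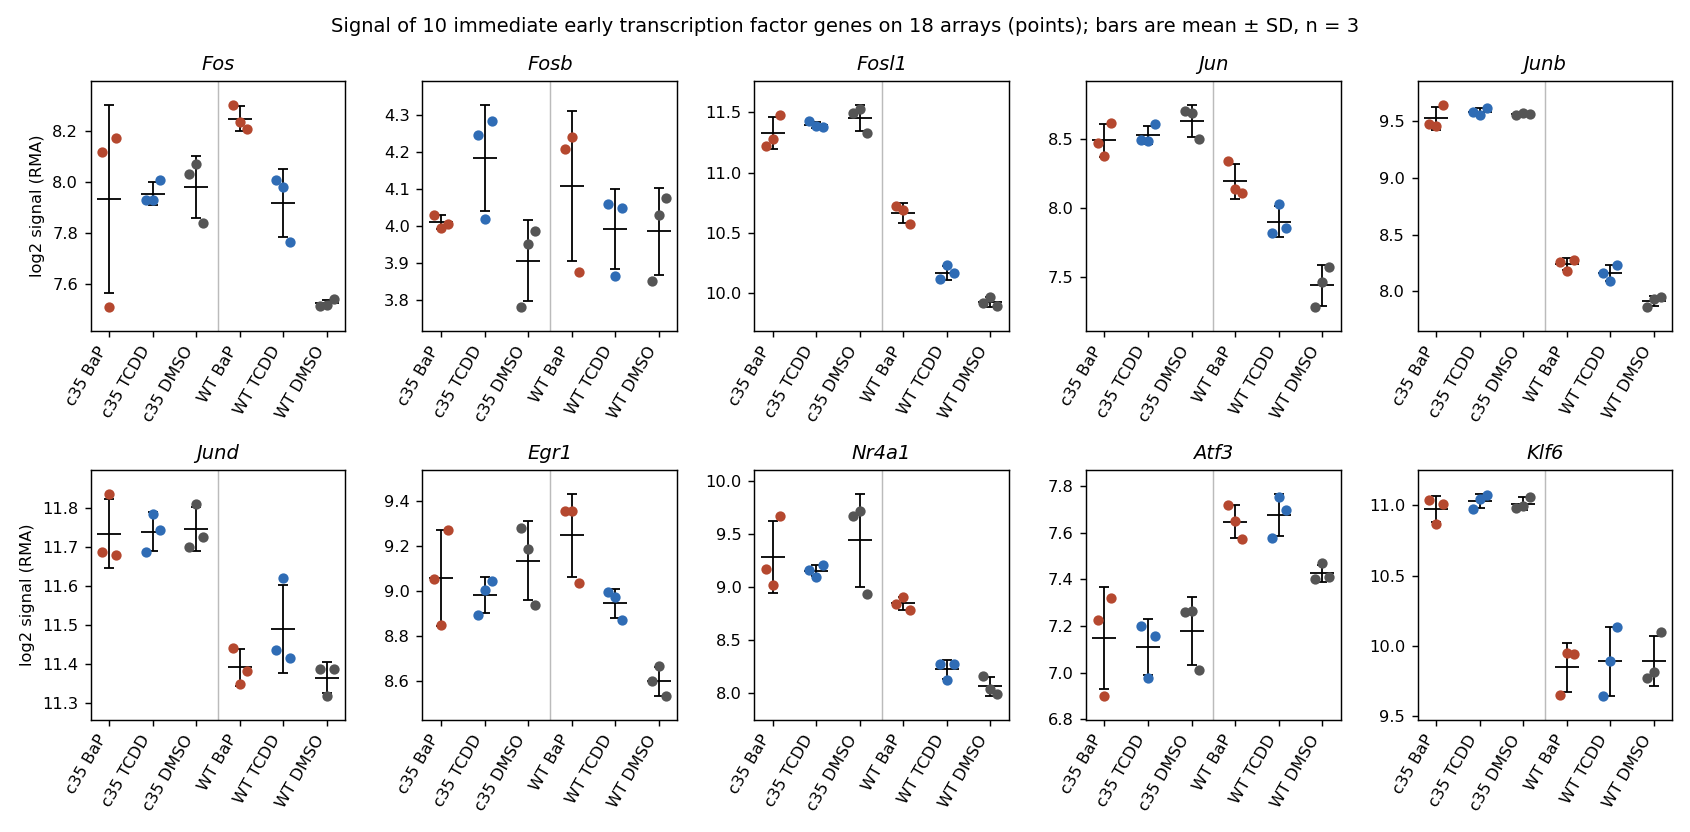
Log2 signal (RMA, vertical axes, not starting at 0) of each of the 10 genes on the 18 arrays; points are arrays, colored by treatment, and bars give mean ± SD for 3 arrays a group. *Fosl1*, *Jun*, *Junb*, *Nr4a1* and *Klf6* sit higher on the naive c35 arrays than on the naive wild-type arrays, and in wild-type cells *Fos*, *Fosl1*, *Jun*, *Egr1* and *Nr4a1* stand highest with BaP.

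In wild-type cells 5 of the 10 genes, *Fos*, *Fosl1*, *Jun*, *Egr1* and *Nr4a1*, had all 3 BaP arrays above all 3 TCDD arrays, but none passed both the FDR and the 1.5-fold minimum. Over all genes, 11.3% had BaP arrays entirely above the TCDD arrays, 0.121% were called higher with BaP and 0.137% were called lower. The median log2 difference, BaP minus TCDD, was 0.21 over the 10 genes and -0.01 over all genes. The ligands were given at different doses, so ligand and dose cannot be told apart. In this bulk RNA, fewer expressing cells and less RNA per cell cannot be told apart either.

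*Fosl1*, which encodes the FOS family protein FRA-1, differed most clearly between the ligands. Its log2 signal was 10.72, 10.69 and 10.57 with BaP, 10.11, 10.23 and 10.16 with TCDD, and 9.91, 9.97 and 9.89 with DMSO. The BaP arrays were the highest and the DMSO arrays the lowest, with no overlap among the groups. BaP exceeded TCDD by a log2 difference of 0.49 (standard error 0.07, adjusted p = 0.00111), a 1.41-fold difference that passed the FDR but not the minimum change. It was the only one of the 10 to pass the FDR alone, against 0.781% of all genes that did so in this direction. The second *Fosl1* probe set gave a log2 difference of 0.52 (adjusted p = 0.0607), with log2 signals of 7.58, 7.71 and 7.51 with BaP and 6.79, 7.09 and 7.36 with TCDD.

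*Nr4a1*, whose protein is also called NUR77, had the widest difference between the ligands, and *Fos* the third after *Fosl1*. The log2 signal of *Nr4a1* was 8.84, 8.91 and 8.78 with BaP, 8.27, 8.12 and 8.27 with TCDD, and 8.16, 8.03 and 7.99 with DMSO. Its TCDD arrays overlapped the DMSO arrays, while the BaP arrays lay clear of both. BaP exceeded TCDD by 0.62 on the log2 scale (95% interval 0.29 to 0.96), or 1.54-fold, with an adjusted p of 0.0584. With array weights, without probe sets below the median signal, with 1 mean per gene, with the *Actb* difference as a covariate and with only the compared arrays, its adjusted p was 0.0251, 0.0426, 0.0449, 0.0461 and 0.00124, and *Nr4a1* was then called.

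*Fos*, the founding member of its family, had log2 signals of 8.30, 8.24 and 8.21 with BaP, 8.01, 7.98 and 7.76 with TCDD, and 7.51, 7.52 and 7.54 with DMSO. The 3 groups were apart, with BaP highest. The BaP minus TCDD log2 difference was 0.33 (95% interval 0.08 to 0.59, adjusted p = 0.212). *Jun*, the AP-1 partner of *Fos*, had 8.34, 8.14 and 8.11 with BaP, 7.82, 8.03 and 7.85 with TCDD, and 7.28, 7.46 and 7.57 with DMSO. Its log2 signals were again apart in the same order, and BaP minus TCDD was 0.29 on the log2 scale (adjusted p = 0.136). *Egr1*, a growth-factor-induced zinc finger factor gene, had log2 signals of 9.35, 9.35 and 9.04 with BaP, 8.99, 8.97 and 8.87 with TCDD, and 8.60, 8.67 and 8.54 with DMSO. BaP minus TCDD was 0.30 for *Egr1* on the log2 scale (adjusted p = 0.185). All 5 of these genes had an unadjusted p under 0.05 for BaP against TCDD. The share of all genes under that limit was not counted, for this or the later comparisons.

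The other 5 genes showed no separation of the ligands, and their intervals limit the likely size of a difference in probe set signal. BaP minus TCDD on the log2 scale lay between -0.06 and 0.21 for *Junb*, between -0.23 and 0.03 for *Jund*, between -0.24 and 0.18 for *Atf3* and between -0.27 and 0.18 for *Klf6* (95% intervals). For *Fosb*, whose log2 signal stayed between 3.85 and 4.24 on all wild-type arrays, the interval was -0.12 to 0.35. Its signal lay below the median of all probe sets, so that interval may not limit a difference in its RNA.

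**Figure D2:**
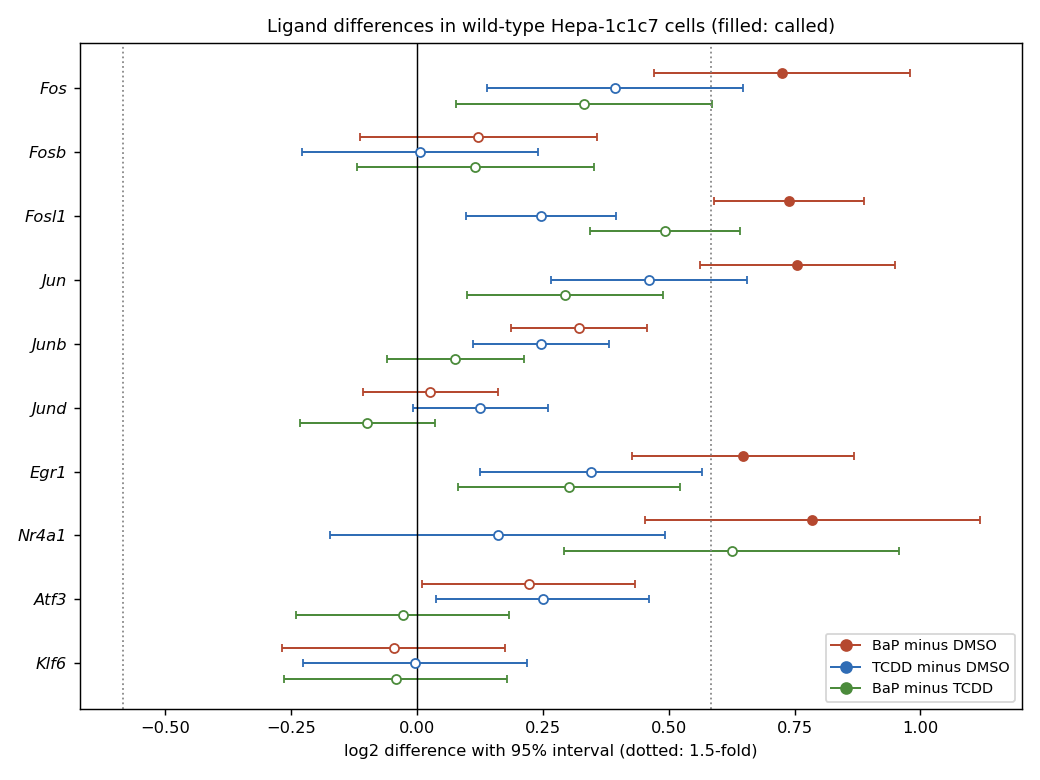
Log2 differences (horizontal axis) between treatments in wild-type Hepa-1c1c7 cells for the 10 genes, with 95% intervals from limma; filled points were called and dotted lines mark a 1.5-fold change. *Fos*, *Fosl1*, *Jun*, *Egr1* and *Nr4a1* were called for BaP against DMSO, and 0 genes were called for TCDD against DMSO or for BaP against TCDD.

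Against DMSO, BaP raised the same 5 genes, whereas TCDD gave no call among the 10. *Fosl1* rose by 0.74 on the log2 scale with BaP (standard error 0.07, adjusted p = 1.86e-06), *Jun* by 0.76 (0.09, 3.51e-05), *Egr1* by 0.65 (0.11, 0.000666), *Fos* by 0.73 (0.12, 0.000886) and *Nr4a1* by 0.78 (0.16, 0.00466). Those are 5 of 10 called higher and 0 lower, against 0.885% and 0.434% of all genes, and the median log2 difference was 0.49 against 0.00 over all genes. BaP arrays lay entirely above DMSO arrays for 7 of the 10, against 11.5% of all genes. *Junb*, at log2 signals of 8.26, 8.18 and 8.28 with BaP and 7.86, 7.93 and 7.95 with DMSO, passed the FDR with a log2 difference of 0.32 (adjusted p = 0.00437) but not the minimum change. *Atf3* was 7.72, 7.65 and 7.57 with BaP and 7.40, 7.47 and 7.41 with DMSO, so its groups were apart, with a log2 difference of 0.22 (adjusted p = 0.271). The log2 differences of *Fosb*, *Jund* and *Klf6* were 0.12, 0.03 and -0.05.

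With TCDD the log2 differences from DMSO were positive for 9 of the 10 genes. TCDD arrays lay entirely above DMSO arrays for 7 of the 10 genes, against 10.4% of all genes, and the median log2 difference was 0.25 against 0.01 over all genes. *Jun*, at 0.46 (standard error 0.09, adjusted p = 0.0197), was the 1 gene that passed the FDR, which 0.764% of all genes did in this direction, and it stayed below 1.5-fold. *Fos* had a log2 difference of 0.39 (adjusted p = 0.169), *Egr1* 0.35 (0.162), *Fosl1* 0.25 (0.138), *Junb* 0.25 (0.0946), *Atf3* 0.25 (0.304) and *Nr4a1* 0.16 (0.749). An unadjusted p under 0.05 was reached by 6 of them. Called genes made up 0.341% of all genes for TCDD in this direction. The ligand comparisons share their DMSO arrays, and each ligand's arrays enter its comparison with the other ligand.

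Between the naive lines, 5 of the 10 genes were called higher in c35 cells and 0 lower: *Junb*, *Fosl1*, *Nr4a1*, *Jun* and *Klf6*. Of all genes, 6.52% were called higher in c35 and 7.52% lower. The median log2 difference, c35 minus wild-type, was 0.83 over the 10 genes and 0.03 over all genes. Without a minimum change, 8 of the 10 were higher at the FDR, against 19.1% of all genes.

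*Junb*, a JUN protein that binds DNA with FOS partners, had the widest range of group means among the 10, at 1.67 on the log2 scale. Its log2 signal was 9.55, 9.57 and 9.57 in naive c35 cells, against 7.86, 7.93 and 7.95 in naive wild-type cells. The difference of 1.65 (standard error 0.06, adjusted p = 7.89e-14), or 3.14-fold, was many times the spread among replicates. *Fosl1* was 11.50, 11.53 and 11.33 in naive c35 cells and 9.91, 9.97 and 9.89 in naive wild-type cells. It was 2.89-fold higher in c35, a log2 difference of 1.53 (standard error 0.07, adjusted p = 1.11e-12). *Jun* was 8.70, 8.69 and 8.50 in naive c35 cells and 7.28, 7.46 and 7.57 in naive wild-type cells, and its log2 difference was 1.19 (standard error 0.09, adjusted p = 2.44e-09). Neither gene had overlapping arrays. *Klf6*, a zinc finger factor known as a tumor suppressor, was 10.98, 11.00 and 11.06 in naive c35 cells and 9.77, 9.82 and 10.10 in naive wild-type cells. Its log2 difference was 1.12 (standard error 0.11, adjusted p = 4.19e-08), and its 6 arrays fell into 2 separate sets by line.

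*Nr4a1* was the member whose naive c35 arrays disagreed most. Its log2 signals were 9.67, 9.72 and 8.94 in naive c35 cells and 8.16, 8.03 and 7.99 in naive wild-type cells, so the lines did not overlap, although c35 DMSO replicate 3 was closer to the wild-type arrays than the other c35 arrays were. The log2 difference was 1.38 (standard error 0.16, adjusted p = 6.02e-07), and 0.88 (0.11, 1.32e-05) without the 3 c35 arrays of high *Cyp1a1*. *Fos* was 8.03, 8.07 and 7.84 in naive c35 cells and 7.51, 7.52 and 7.54 in naive wild-type cells, with a log2 difference of 0.46 (adjusted p = 0.00551) that became 0.32 (adjusted p = 0.193) without those arrays. For *Egr1*, at 9.28, 9.19 and 8.94 in naive c35 cells and 8.60, 8.67 and 8.54 in naive wild-type cells, the log2 difference was 0.54 (adjusted p = 0.000379), and 0.34 (adjusted p = 0.0671) without them. Both stayed below 1.5-fold in the fit of all arrays. Without those arrays the naive c35 group is a single array, which is then assumed to vary like the arrays of the other groups, and the same 5 genes were called.

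*Jund*, the most steadily expressed JUN gene, had a log2 signal of 11.70 to 11.81 in naive c35 cells and 11.32 to 11.39 in naive wild-type cells, a log2 difference of 0.38 (adjusted p = 6.93e-05) below the minimum change. *Atf3* ran the other way: it was 7.26, 7.26 and 7.01 in naive c35 cells and 7.40, 7.47 and 7.41 in naive wild-type cells. Its groups did not overlap, with a log2 difference of -0.25 (adjusted p = 0.0654), and without the 3 c35 arrays of high *Cyp1a1* it was lower at the FDR (-0.42, adjusted p = 0.0302). *Fosb* was 3.78 to 3.99 in naive c35 cells and 3.85 to 4.08 in naive wild-type cells, with a difference of -0.08 (adjusted p = 0.654).

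**Figure D3:**
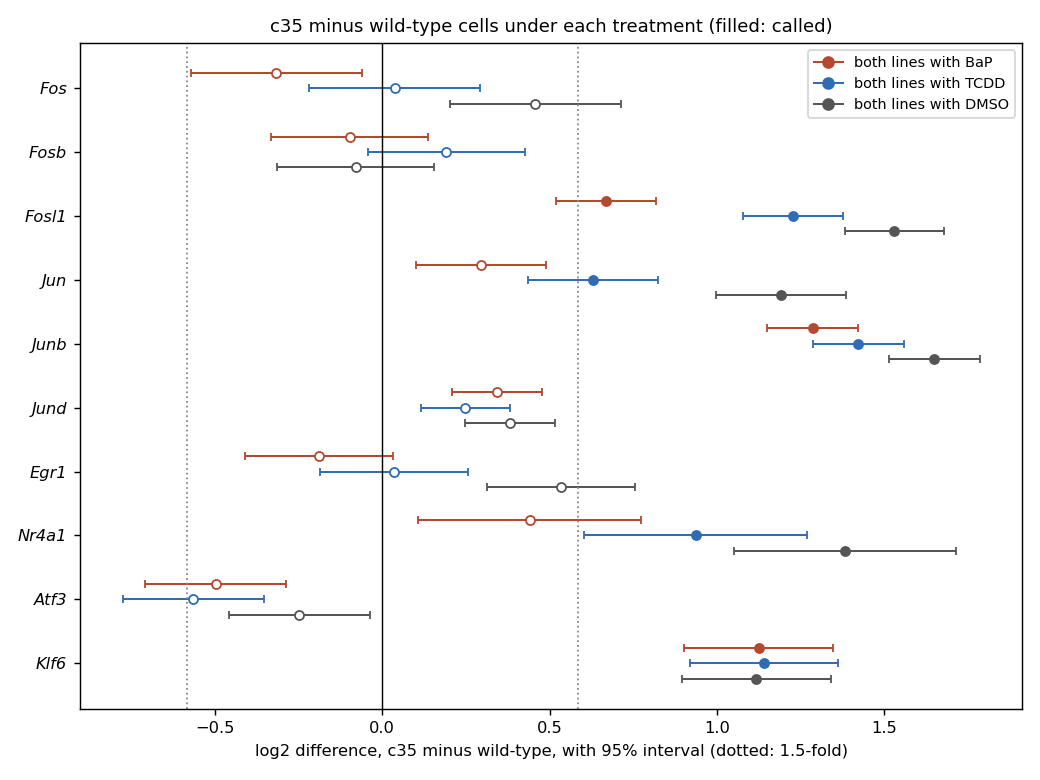
Log2 differences, c35 minus wild-type (horizontal axis), for the 10 genes under BaP, TCDD and DMSO, with 95% intervals from limma; filled points were called and dotted lines mark a 1.5-fold change. *Fosl1*, *Junb* and *Klf6* were called under all 3 treatments, *Jun* and *Nr4a1* under TCDD and DMSO only.

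The line difference was seen again under each ligand, on arrays that the naive comparison does not use. With TCDD in both lines the same 5 genes were called higher in c35 cells, against 6.32% of all genes. The log2 differences were 1.42 for *Junb*, 1.23 for *Fosl1*, 1.14 for *Klf6*, 0.94 for *Nr4a1* (adjusted p = 7.21e-05) and 0.63 for *Jun* (adjusted p = 1.40e-05). With BaP in both lines 3 were called higher, against 6.83% of all genes: *Junb* by 1.29, *Klf6* by 1.12 and *Fosl1* by 0.67 (adjusted p = 1.80e-07). *Jun*, at 0.30 (adjusted p = 0.0165), and *Nr4a1*, at 0.44 (adjusted p = 0.0359), then stayed below the minimum change. *Atf3*, which encodes a stress factor, was lower in c35 at the FDR under TCDD (-0.56, adjusted p = 0.000127), as were 19.8% of all genes. It was also lower under BaP (-0.50, adjusted p = 0.000457), as were 19.7% of all genes. With BaP in both lines, *Fos* had a log2 difference of -0.32 (adjusted p = 0.0498) and *Egr1* one of -0.19 (adjusted p = 0.189), both negative where the naive lines gave positive values. Without the 3 c35 arrays of high *Cyp1a1*, one of them a BaP array, the differences with BaP in both lines were -0.44 for *Fos* (adjusted p = 0.0162), -0.30 for *Egr1* (adjusted p = 0.0339), 0.25 for *Nr4a1* (adjusted p = 0.0348) and 0.23 for *Jun* (adjusted p = 0.107), and the same 3 genes were called. The heat shock genes, read as a sign of handling, also had a higher mean log2 signal on c35 arrays (8.54 to 8.69) than on wild-type arrays (8.34 to 8.42), although 0 of 8 were called between the naive lines (4 had an unadjusted p under 0.05, higher in c35) and 0 of 8 with TCDD in both lines. With BaP in both lines 1 of 8 was called higher in c35, the chaperone gene *Hsp90aa1* by 0.65, which was also called between the naive lines without the 3 arrays, and the defining *Hspa1a* and *Hspa1b* stayed low at 2.25 to 2.87 on every array. The part of heat shock, and of the *Actb* difference given above, in the line differences was not tested. The *Actb* values of the lines did not overlap, so a fit with that difference as a covariate cannot separate it from the line. In that fit the same 5 genes were called between the naive lines. Under TCDD *Jun* was then not called and *Atf3* was called lower. *Atf3* was also called lower under TCDD without c35 TCDD replicate 1, c35 TCDD replicate 3 or wild-type TCDD replicate 1.

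In c35 cells no gene was called for either ligand. Of all 18193 genes, limma called 0 in either direction for BaP or for TCDD against DMSO, and the lowest adjusted p for TCDD was 0.962. At an unadjusted p under 0.05 stood 0 of the 10 genes with BaP and 1 with TCDD. That gene was *Fosb*, at log2 signals of 4.25, 4.02 and 4.28 with TCDD and 3.78, 3.95 and 3.99 with DMSO. The log2 differences of the 10 genes from DMSO lay between -0.16 and 0.10 with BaP and between -0.29 and 0.28 with TCDD. Several directions rested on the 3 arrays of high *Cyp1a1*. Without them *Nr4a1*, at -0.16 with BaP and -0.29 with TCDD over all arrays, had log2 differences of 0.15 and 0.22, and with TCDD *Fos* (0.11), *Atf3* (0.10), *Fosl1* (0.07), *Egr1* (0.04), *Jun* (0.03) and *Jund* (0.01) turned positive and *Klf6* (-0.03) negative. With BaP *Atf3* (0.05), *Jund* (0.03) and *Egr1* (0.01) turned positive. No gene of the 10 was called in c35 cells without them either. The c35 arrays of BaP read 11.22, 11.28 and 11.48 for *Fosl1*, 8.47, 8.38 and 8.62 for *Jun*, and 9.47, 9.46 and 9.64 for *Junb*. With TCDD the c35 arrays read 11.43, 11.38 and 11.38 for *Fosl1*, 8.50, 8.49 and 8.61 for *Jun*, and 9.58, 9.55 and 9.62 for *Junb*. All of these lay close to the naive c35 values given above. Other genes spread more widely on the c35 BaP arrays: *Fos* had log2 signals of 8.12, 7.51 and 8.17, *Nr4a1* of 9.17, 9.02 and 9.67, *Atf3* of 7.23, 6.90 and 7.32 and *Egr1* of 9.05, 8.85 and 9.27.

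**Figure D4:**
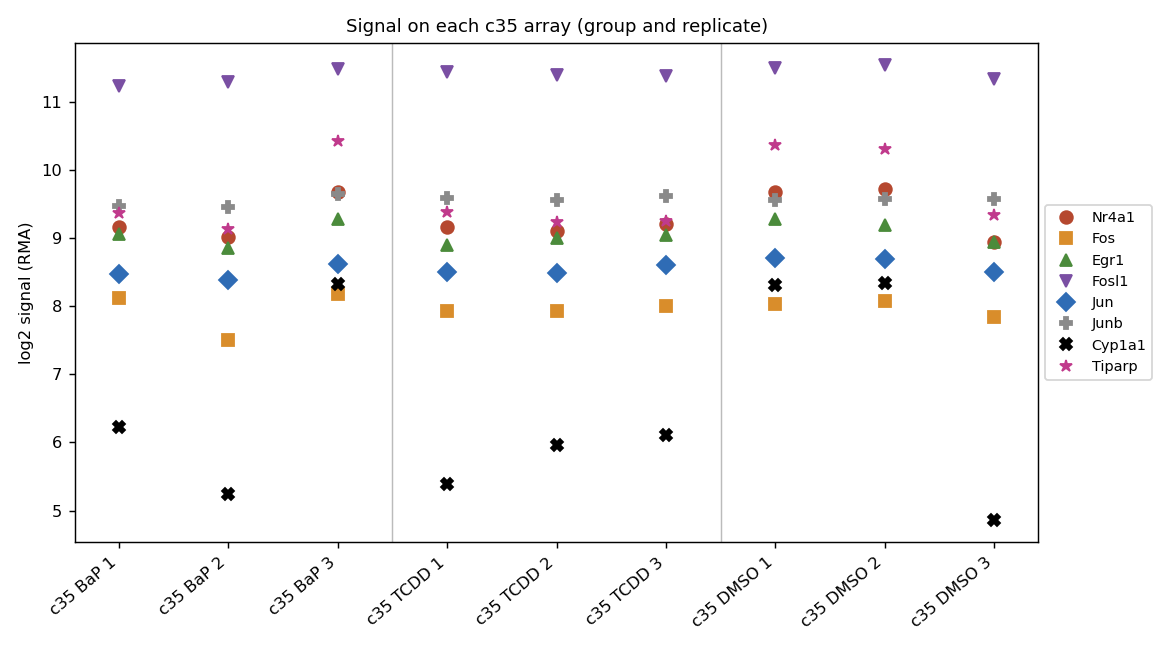
Log2 signal (RMA, vertical axis) on each of the 9 c35 arrays for 6 of the genes and for the AHR targets *Cyp1a1* and *Tiparp*; each point is 1 array. BaP replicate 3 and DMSO replicates 1 and 2 have the highest *Cyp1a1* (8.32 to 8.34) and *Tiparp* (10.30 to 10.42), and *Nr4a1* is also highest there (9.67 to 9.72), while *Junb* stays between 9.46 and 9.64 on all 9.

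The difference in response between the lines was tested directly. For BaP, 5 of the 10 genes had a lower response in c35 cells than in wild-type cells, against 1.01% of all genes: *Nr4a1* (-0.94 on the log2 scale, adjusted p = 0.035), *Jun* (-0.90, adjusted p = 0.000676), *Fosl1* (-0.86, adjusted p = 5.75e-05), *Fos* (-0.77, adjusted p = 0.0224) and *Egr1* (-0.72, adjusted p = 0.0126). The count rested on single arrays. It was 2, *Fosl1* and *Jun*, without c35 DMSO replicate 1 or when the fit used the arrays of the 4 groups alone, and 3, with *Egr1*, without c35 BaP replicate 2, c35 DMSO replicate 2, wild-type BaP replicate 1 or wild-type BaP replicate 2. *Nr4a1* alone lost its call without c35 BaP replicate 1, wild-type BaP replicate 3, wild-type DMSO replicate 2 or wild-type DMSO replicate 3, and with no intensity trend. *Fosl1* and *Jun* were called with any 1 array left out. Without the 3 c35 arrays of high *Cyp1a1* it was 2, *Fosl1* (-0.82, adjusted p = 0.00229) and *Jun* (-0.83, adjusted p = 0.0463), while *Nr4a1* had -0.63 (adjusted p = 0.0716), *Egr1* -0.64 (adjusted p = 0.169) and *Fos* -0.75 (adjusted p = 0.223). For TCDD, 0 of the 10 were called, against 0.275% of all genes lower in c35, and 6 had an unadjusted p under 0.05. *Jun* came closest, at -0.56 (adjusted p = 0.106), and -0.43 (adjusted p = 0.855) without the 3 arrays, where *Nr4a1* had 0.06, against -0.45 over all arrays. The BaP minus TCDD difference in c35 cells minus that in wild-type cells was -0.56 for *Fosl1* (adjusted p = 0.0344), below the minimum change. Without c35 BaP replicate 3 *Fosl1* was called, and without all 3 arrays of high *Cyp1a1* *Fosl1* (-0.64) and *Nr4a1* (-0.69) were.

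**Figure D5:**
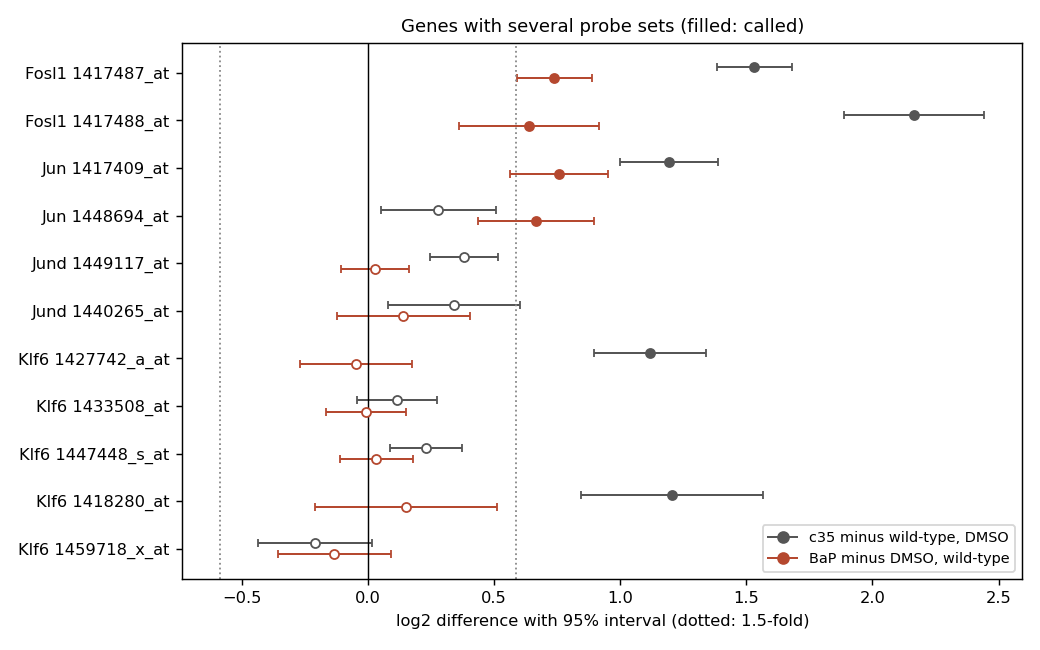
Log2 differences (horizontal axis) for every probe set of the 4 genes that have more than 1, c35 minus wild-type with DMSO and BaP minus DMSO in wild-type cells, with 95% intervals from limma; filled points were called. Both *Fosl1* probe sets and 2 of the 5 *Klf6* probe sets were called higher in c35, but only 1 of the 2 for *Jun*.

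Several genes are read by more than 1 probe set, and these did not always give the same difference. Both *Fosl1* probe sets were called higher in naive c35 cells, the second by 2.16 on the log2 scale (adjusted p = 7.75e-11), and both rose with BaP in wild-type cells, the second by 0.64 (adjusted p = 0.00595). The second *Jun* probe set rose with BaP by 0.67 (adjusted p = 0.000723), against 0.76 for the first. Between the naive lines, however, it read 6.74, 6.47 and 6.58 in c35 cells and 6.18, 6.19 and 6.59 in wild-type cells, a log2 difference of 0.28 (adjusted p = 0.0553) against 1.19 for the first. With BaP in both lines the pair of *Jun* probe sets had opposite signs, 0.30 for the first and -0.40 (adjusted p = 0.00686) for the second. The signs were also opposite with TCDD in both lines, where the first was called higher in c35 by 0.63 and the second had -0.25 (adjusted p = 0.0824). Of the 5 *Klf6* probe sets, 2 were called higher in naive c35 cells, by 1.12 and by 1.21 (adjusted p = 1.03e-05), and the other 3 had log2 differences of 0.11, 0.23 and -0.21. With 1 mean per gene over its probe sets the naive difference of *Klf6* was 0.49 and no longer called, nor was *Klf6* called under TCDD or BaP. The second *Jund* probe set, at a mean log2 signal of 4.65, lay below the median of all probe sets.

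Around the 10 genes, other parts of the same signaling chain were followed through written lists. Among 30 other immediate early genes, BaP raised 5 against DMSO in wild-type cells and lowered 0 (over all genes 0.885% and 0.434%): the antiproliferative gene *Btg2* by 1.52 on the log2 scale, the helix-loop-helix inhibitor gene *Id2* by 1.16, *Ier3* by 0.96, the prostaglandin synthase gene *Ptgs2* by 0.89 and the kinase gene *Plk2* by 0.69. Among these, *Ptgs2* had a mean log2 signal of only 2.77 over all arrays, below the median of 5.66 over all probe sets. The median of the list was 0.22, against 0.00 over all genes. TCDD raised 2 of the 30, *Ier3* by 0.71 and *Id2* by 0.68, against 0.341% of all genes. Set against TCDD directly, BaP was higher for 1, *Btg2*, by 1.0 (adjusted p = 0.00165), against 0.121% of all genes. Between the naive lines 10 of the 30 were higher in c35 cells and 1 lower, with a list median of 0.35, against 6.52% and 7.52% of all genes. Without the 3 c35 arrays of high *Cyp1a1* the counts were 9 and 1, against 7.05% and 7.99% of all genes. The higher genes included *Nr4a2*, the close relative of *Nr4a1*, by 1.56, the NF-κB inhibitor gene *Nfkbia* by 1.12, the leucine zipper factor gene *Nfil3* by 1.11 and *Klf4* by 1.03, and the lower gene was *Id2* (-0.82).

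The lists of this paragraph were read against 0.885% of all genes called higher with BaP and 0.341% with TCDD in wild-type cells. Between the naive lines 6.52% of all genes were called higher in c35 cells and 7.52% lower. With such small ligand shares, 0 calls in a short list says little. Of 11 measured genes for other AP-1 partners, *Maff*, a small MAF protein gene, rose with BaP by 0.71 and with TCDD by 0.59 in wild-type cells. It was higher in naive c35 cells by 0.81, as was *Atf7* by 0.67, and *Maf* was lower (-0.96). Without the 3 c35 arrays of high *Cyp1a1* the higher genes were *Maff* and *Jdp2*, and *Atf7* was not called. Of 14 measured genes for the factors upstream, serum response factor, its cofactors and CREB, limma called 0 for either ligand, with 1 at an unadjusted p under 0.05 for BaP and 3 for TCDD against DMSO. In naive c35 cells *Elk3*, a ternary complex factor gene, was higher by 0.86, and *Creb1* (-0.86), the cofactor gene *Mrtfb* (-0.84) and *Crem* (-0.74) were lower. Of 14 measured mitogen-activated protein kinase pathway genes, limma called 0 for either ligand, with 6 at an unadjusted p under 0.05 for BaP, 5 of them lower, and 0 for TCDD. *Map2k2* was higher in naive c35 cells by 0.88 and *Rps6ka3*, a kinase gene acting on CREB, was lower (-1.27), as was *Mapk14* (-0.69).

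Feedback inhibitors, AP-1 target genes and growth factor genes were read against 6.52% of all genes called higher and 7.52% called lower between the naive lines, and 0.885% called higher with BaP. Of 16 feedback inhibitor genes, 4 were higher in naive c35 cells: the dual-specificity phosphatase genes *Dusp5* by 1.36, *Dusp1* by 1.09 and *Dusp10* by 0.91, and *Zfp36*, whose protein hastens the decay of early messages, by 0.78. The Sprouty gene *Spry1* (-1.96) and its relative *Spred1* (-0.70) were lower. BaP raised 1 of the 16, *Zfp36*, by 0.69 in wild-type cells. Of 13 measured AP-1 target genes, 6 were higher in naive c35 cells and 1 lower, with a list median of 0.56, against 0.03 over all genes. They included the cytokine gene *Il6* by 1.55, the urokinase receptor gene *Plaur* by 0.89, the matrix protease gene *Mmp3* by 0.84 and the protease inhibitor gene *Timp1* by 0.67, while *Mmp10* was lower (-1.20). The mean log2 signal of *Il6* over all arrays was 4.65, below the median of all probe sets. Without the 3 c35 arrays of high *Cyp1a1*, which leaves 1 naive c35 array, the list median was 0.43, against 0.03 over all genes. *Mmp3* and *Timp1* were then not called. With BaP 1 rose against DMSO, the heme oxygenase gene *Hmox1*, by 1.69. It was also the 1 called against TCDD, by 1.30, where 0.121% of all genes were called higher with BaP. Of 17 measured growth factor and receptor genes, *Met* rose with BaP by 0.70. In naive c35 cells *Pdgfb* was higher by 1.12, *Btc* by 0.75 and *Egfr* by 0.69, and *Pdgfra* was lower (-1.59), so that 3 of 17 were higher and 1 lower. *Pdgfra*, at a mean log2 signal of 4.59 over all arrays, also lay below the median of all probe sets. Of the 7 hepatoma markers 1 was called between the naive lines, the hepatocyte gene *Alb* (-2.46), and the median of the 7 was 0.06, with *Krt8* at 0.29, *Ttr* at 0.22 and *Afp* at -0.18. Of 4 fibroblast markers *Pdgfrb* (-1.20) was lower in naive c35 cells, and 0 of 4 endothelial markers were called, with 1 at an unadjusted p under 0.05. Of 4 leukocyte markers, *Cd68* (1.39) and *Csf1r* (1.25) were higher in c35, while the defining *Ptprc* had a mean log2 signal of 2.85 in naive c35 cells and 2.93 in naive wild-type cells, below the median of all probe sets. The part of these markers in the differences was not tested.

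For the 3 genes of the widest range, the genes whose 6 group means ran closest to theirs were found among 16328 named genes by the root-mean-square difference after centring. This is a description over 6 group means. Closest to *Junb* were *Ifngr2*, the second chain of the interferon gamma receptor, at a log2 distance of 0.03, *Clba1* at 0.05 and *Serp1* at 0.06. Closest to *Fosl1* were *Gpr137b* at 0.06, *Nr4a2* at 0.08 and *Gcnt2* at 0.09. Closest to *Nr4a1* were *Pvr*, the poliovirus receptor gene, *Ppp1r15a*, a stress-induced phosphatase subunit gene, and *Nfkbiz*, each at 0.11.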

How the data were processed

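Per the submitters' processing notes, the authors deposited 1 table of log2 signals made by RMA, that is, background correction, normalization across arrays and 1 summary value per probe set. For its version, none was given in the sources used here. There were 45101 probe sets on the Mouse Genome array, of which 64 Affymetrix controls were left out. Of the remaining 45037, 34945 carried 1 gene symbol in the platform annotation, 932 several and 9160 none, and only probe sets with 1 symbol named a gene (18193 genes). The current symbol was looked up by gene number for 34741 probe sets and changed 0. The values were used as deposited.

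In R 4.3.3, limma 3.58.1 fitted the 6 group means to the 18 arrays, and eBayes moderated the variances along the mean intensity; tables were read with the data.table package (version 1.17.8). Two-sided p-values were corrected by the Benjamini-Hochberg method, in each comparison over all 45037 probe sets, and 95% intervals come from the same fit. Calls required an adjusted p below 0.05 and more than a 1.5-fold change, the limits that the study's methods give. The prior variance was shared by all groups, and the number of arrays limits the precision. No 2 arrays held identical values (0 duplicates). The comparisons with c35 arrays rest on the labels as given.

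All 10 genes were named with every probe set, and a gene is represented by its probe set of highest mean signal. From each list up to 4 called genes of largest change in each direction were named, and for the 3 genes of widest range the 3 others with the closest group means. The genes and the lists were chosen with earlier results of these data known. Promoter sequences came from RefSeq (GRCm38.p6). Alternatives were array weights, quantile normalization, no intensity trend, only probe sets above the median signal, 1 mean per gene, a covariate for the *Actb* 3′ minus 5′ difference, a block for the replicate number, only the arrays compared, no minimum change, and each array left out in turn. Leaving out the 3 c35 arrays of high *Cyp1a1* was added after the data were seen. The scripts were tested on simulated data. Figures were drawn with matplotlib 3.10.9.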

Additional observations from a re-analysis of the deposited data

Results flagged for a closer look

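Of the values reported above, 5 stand out because the response to the same ligand differed between the lines. The response to BaP in c35 cells minus that in wild-type cells, on the log2 scale, was -0.94 for *Nr4a1*, -0.90 for *Jun*, -0.86 for *Fosl1*, -0.77 for *Fos* and -0.72 for *Egr1*, each tested as an interaction in limma over 3 arrays per group. In the c35 cells themselves the BaP minus DMSO log2 differences of these 5 genes lay between -0.16 and -0.05, and in wild-type cells between 0.65 and 0.78. Without the 3 c35 arrays of high *Cyp1a1* the c35 differences were 0.15 for *Nr4a1*, 0.01 for *Egr1*, -0.03 for *Fos*, -0.07 for *Jun* and -0.08 for *Fosl1*. The c35 DMSO and BaP arrays that enter these values include those 3 arrays, without which *Jun* (-0.83) and *Fosl1* (-0.82) were called and the other 3 genes were not.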

How the results depend on the processing

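The call of 5 genes for BaP against DMSO in wild-type cells held under all alternatives run, except that with no minimum change *Junb* was called too. Between BaP and TCDD the count was 0, and 1 (*Nr4a1*) with array weights, without probe sets below the median signal, with 1 mean per gene, with the *Actb* covariate and with only the arrays compared. With no minimum change it was 1 (*Fosl1*), and the counts were then 8 for the naive lines, 8 for the lines under BaP, 1 (*Jun*) for TCDD against DMSO and 1 (*Fosl1*) for the BaP minus TCDD difference between lines. With 1 mean per gene the count for the lines under TCDD was 3 (*Fosl1*, *Junb*, *Nr4a1*), against 5, and that for the lines under BaP was 2 (*Fosl1*, *Junb*), against 3. The BaP response between lines gave 5 calls, and 2 (*Fosl1*, *Jun*) with only the arrays compared, 2 without the 3 c35 arrays of high *Cyp1a1*, and 2 to 5 with each array left out in turn. The BaP minus TCDD difference between lines gave 0 calls, 0 to 1 with each array left out, and 2 (*Fosl1*, *Nr4a1*) without the 3 arrays. Other counts of the 10 genes moved by less than 1.5 times, among them 5 to 6 for the naive lines with each array left out, the sixth being *Egr1* without c35 DMSO replicate 3 (0.63 on the log2 scale), as with array weights (0.60). Values near 0 changed sign: *Fosb* for TCDD against DMSO (-0.0514 with array weights), *Jund* for BaP against DMSO (-0.0056 with quantile normalization), *Jund* (0.0192) and *Klf6* (0.0163) for BaP against TCDD with 1 mean per gene, and *Fosb* between the naive lines (0.0002 without the 3 c35 arrays). With each array left out, BaP against TCDD ranged from -0.165 to 0.0789 for *Klf6* and from -0.0779 to 0.0101 for *Atf3*. BaP against DMSO ranged from -0.109 to 0.0544 for *Klf6*, and TCDD against DMSO from -0.0606 to 0.0685 for *Fosb* and from -0.125 to 0.118 for *Klf6*. What caused the changed calls and signs under these settings was not tested. Deviations of same-numbered arrays correlated at -0.26 to 0.22, which cannot show whether the replicate numbers pair the samples. For c35 against wild-type cells under TCDD, 3 of 3 arrays correlated best with their own number. For TCDD against DMSO in wild-type cells, 0 of 3 did. Under the replicate block the counts were 0 for BaP against TCDD, 5 for the naive lines, 5 and 3 for the lines under TCDD and BaP, 5 for BaP against DMSO and 5 for the BaP response between lines, with no call changed.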
